A study of Rattus norvegicus with 6 samples.

Results

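A set of 8 genes of mitogen-activated protein kinase (MAPK) signalling was followed in endothelial cells sorted from rat skin. They were the dual-specificity phosphatase genes Dusp1, Dusp2, Dusp4, Dusp5, Dusp6, Dusp8 and Dusp10, and the atypical kinase gene Mapk6. These 8 genes of the 15037 named by the platform annotation were chosen by symbol, with earlier results of these data known. Mapk6 was chosen also because its level was higher on every knockout array. The comparison of genotypes is therefore given for the 8 genes as a description without a test. Each was read by 1 probeset, and all 8 passed the filter on dim genes that left 11515 genes. The samples were sorted endothelial cells from abdominal skin of 6 Sprague-Dawley rats, 3 with an interleukin-33 (Il33) knockout (females 28 and 27, male 52) and 3 wildtype (females 34 and 45, male 37). Skin had been digested with collagenase and DNase with warming and rotation, cells carrying CD45 or Lyve-1 had been removed on magnetic beads, and cells carrying CD31 kept; the age of the rats and the structure of the deleted allele were not given in sources used here. Each array came from its own animal.

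MAPKs (the ERK, JNK and p38 families) carry signals from growth factors, cytokines and stress to the nucleus, and are switched on by phosphorylation of a threonine and a tyrosine in their activation loop. Dual-specificity phosphatases of the MAPK phosphatase group remove both phosphates; several of their genes are themselves induced by MAPK signalling, which makes them a negative feedback. In endothelium, ERK signalling downstream of VEGF receptors and p38 and JNK signalling downstream of inflammatory cytokines are read in part through these genes. Mapk6 encodes ERK3, a short-lived kinase related to ERK that has a single phosphorylation site in its activation loop and signals through the kinase Mapkapk5.

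Mapk6 was on average 1.09 log2 units higher in the knockout, with 1.22 for the females and 0.82 for the male pair. Dusp8 was also higher on all knockout arrays than on all wildtype arrays, by 0.82 on average but by 0.13 at the nearest pair. Of all genes tested, 6.25% were likewise without overlap between genotypes, in either direction. Dusp5 differed by 1.39 between genotypes in the females and by -0.28 in the males. The 6 other phosphatase genes, Dusp5 among them, overlapped between genotypes. The difference between knockout and wildtype had opposite signs in females and males for 5 members (Dusp2, Dusp4, Dusp5, Dusp6 and Dusp10), as it had for 47.7% of all genes tested. No member passed the test between the sexes after adjustment over all genes.

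Values are log2 expression as deposited. Il33 itself was 8.07, 8.37 and 9.82 in knockout 28, 27 and 52 against 13.86, 16.32 and 16.60 in wildtype 34, 45 and 37. Blood endothelial markers were high on all 6 arrays, with Cdh5 at 19.62 to 19.71 and Pecam1 at 14.99 to 15.82, while the T cell gene Cd3e was at 3.07 to 4.64 and the leukocyte gene Ptprc at 3.99 to 7.72. Of the other leukocyte markers tested, Csf1r was at 2.83 to 5.17, Lyz2 at 6.65 to 10.76, Cd68 at 8.85 to 10.72 and Lcp1 at 9.29 to 10.44. The array median of all probesets was 4.63 to 4.78. The 23 background probesets reached at most 5.36 to 5.87 per array, and all members lay above that limit on all 6 arrays except Dusp4, which did so on 3. Of the 1153 probesets named as negative controls the 95th percentile was 8.35 to 9.41 per array. Dusp1 and Dusp6 lay above it on 6 arrays, Dusp5 and Mapk6 on 4, and the other members on 0. The arrays on which Dusp5 and Mapk6 lay below it were wildtype 34 and 45, where it was 9.25 and 9.41.

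The number of arrays limits the precision, and the limma standard error of a genotype difference had a median of 0.39 over all genes. The genotype test called 1 gene, Il33 (limma adjusted p = 0.0439), or 0.00868% of the genes tested, and 0 genes without knockout 28, 27 or 52 or wildtype 45 or 37. The 3 values of a genotype all lay above the 3 of the other for 387 genes higher in the knockout (3.36%) and 333 lower (2.89%); this was so for 2 of the 8 members, Mapk6 and Dusp8, both higher, and nothing is read from that count because the choice of Mapk6 used it.

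Mapk6 was measured at 9.84, 9.78 and 9.94 in knockout 28, 27 and 52 and at 8.61, 8.57 and 9.12 in wildtype 34, 45 and 37. The knockout arrays lay within a span of 0.16 and the wildtype male 37 was nearest to them. The means were 9.85 ± 0.081 and 8.77 ± 0.31 (SD, n = 3 each), a difference of 1.09 (SE 0.32, limma). The females differed by 1.22 and the male pair by 0.82. Leaving out any 1 array gave 0.99 to 1.26, and with the median of the keratinocyte markers as a covariate it was 0.95.

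Dusp8 encodes a phosphatase that prefers JNK and p38 to ERK. It was at 7.19, 7.07 and 7.09 in knockout 28, 27 and 52 and at 5.49, 6.45 and 6.94 in wildtype 34, 45 and 37. The 3 knockout arrays were nearly equal, and the gap between the lowest of them and wildtype 37 was 0.13. The means were 7.12 ± 0.064 and 6.29 ± 0.74 (SD, n = 3 each), a difference of 0.82 (SE 0.41). The females differed by 1.16 and the male pair by 0.15, and the difference was 0.42 when wildtype 34 was left out.

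Wildtype 34 also had the highest keratinocyte signal of the 6 arrays. The median of the 5 keratinocyte markers tested was 15.26, 11.86 and 9.18 for wildtype 34, 45 and 37 and 11.66, 9.16 and 9.37 for knockout 28, 27 and 52; all 5 markers were lower on average in the knockout, with basal Krt14 at 7.63 to 15.11 over the arrays. Medians in the knockout and the wildtype were 9.06 to 10.37 and 9.68 to 12.69 for fibroblast markers, 11.35 to 12.87 and 11.07 to 13.10 for pericyte and smooth muscle markers, 7.12 to 8.56 and 5.24 to 8.29 for lymphatic markers, and 9.31 to 13.92 and 7.73 to 10.49 for erythroid genes. For the 6 leukocyte markers tested they were 6.01 to 7.285 and 5.58 to 8.695, with wildtype 34 the highest. Of the 7 pericyte and smooth muscle markers, 6 were higher on average in the knockout and 1 lower. Pdgfrb differed the most, by 1.13, with 13.05, 13.62 and 13.15 in knockout 28, 27 and 52. In wildtype 34, 45 and 37 Pdgfrb was at 11.90, 11.44 and 13.10. With the keratinocyte median as a covariate the difference of Dusp8 was 0.43 and that of Dusp5 was 0.38. In sorted bulk cells a smaller number of cells of a type and less RNA per cell cannot be told apart. What part such cells have in these differences was not tested beyond that covariate.

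Dusp5 encodes a nuclear phosphatase specific for ERK and is induced by ERK signalling. It was at 9.83, 9.39 and 9.92 in knockout 28, 27 and 52 and at 8.34, 8.10 and 10.20 in wildtype 34, 45 and 37. Both wildtype females lay below every other array, while the wildtype male had the highest value of the 6, so the genotypes overlapped. The means were 9.71 ± 0.28 and 8.88 ± 1.15 (SD, n = 3 each), a difference of 0.83 (SE 0.53). The standard deviation of Dusp5 over the 6 arrays, 0.88, was at the 93.4th percentile of all genes tested, the highest position among the members. Without wildtype 37 the difference was 1.49, and without wildtype 45 it was 0.44.

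**Figure D1:**
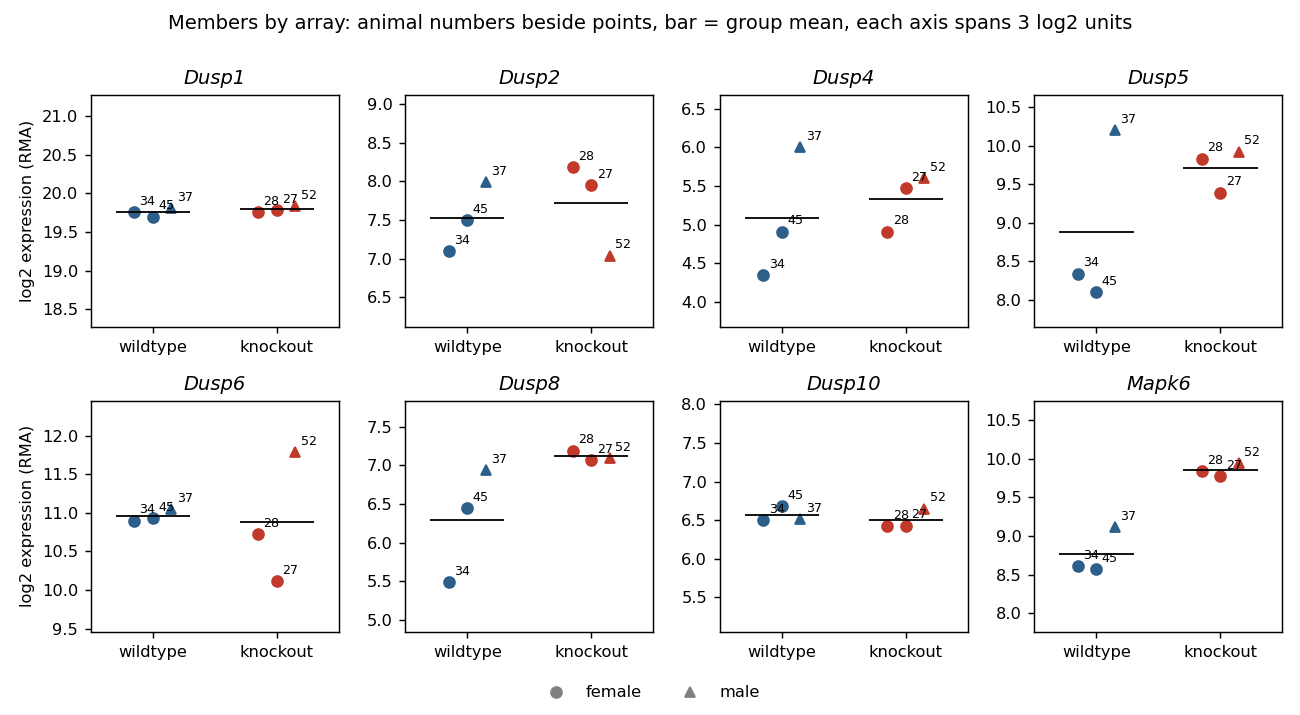
Log2 expression of each member (vertical axis, 3 log2 units in every panel) by genotype, with circles for females, triangles for males, animal numbers beside the points and a bar at the group mean. The genotypes are apart for Mapk6 (difference 1.09) and, by a small gap, for Dusp8, while Dusp1 and Dusp10 hardly vary.

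The start regions of Dusp5, Dusp8 and Mapk6 are shown here because these members had their lowest values together, in wildtype 34 and 45. Promoter sequences, taken from RefSeq on assembly GRCr8, run from 250 bases before to 50 bases after the annotated gene start; they were matched by symbol for 7 members, all but Dusp4. Capitals mark CArG boxes (the binding sequence of serum response factor) and the CRE half-site TGACG (part of the cyclic AMP response element), each searched on both strands and printed 5′ to 3′ on the gene's strand.
Dusp5, GRCr8 chr1:262543524-262543823, plus strand: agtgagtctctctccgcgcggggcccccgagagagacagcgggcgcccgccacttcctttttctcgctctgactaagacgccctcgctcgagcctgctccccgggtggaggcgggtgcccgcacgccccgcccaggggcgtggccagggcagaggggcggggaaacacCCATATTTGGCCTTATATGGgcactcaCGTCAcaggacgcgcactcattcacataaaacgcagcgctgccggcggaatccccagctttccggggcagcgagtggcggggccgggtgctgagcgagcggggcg
Dusp8, GRCr8 chr1:206612392-206612691, minus strand: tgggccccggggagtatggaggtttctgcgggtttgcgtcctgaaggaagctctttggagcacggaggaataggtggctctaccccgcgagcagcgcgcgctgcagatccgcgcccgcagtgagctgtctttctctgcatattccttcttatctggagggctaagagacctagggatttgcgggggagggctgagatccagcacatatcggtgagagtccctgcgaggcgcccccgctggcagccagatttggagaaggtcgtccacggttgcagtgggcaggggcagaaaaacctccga
Mapk6, GRCr8 chr8:85050187-85050486, minus strand: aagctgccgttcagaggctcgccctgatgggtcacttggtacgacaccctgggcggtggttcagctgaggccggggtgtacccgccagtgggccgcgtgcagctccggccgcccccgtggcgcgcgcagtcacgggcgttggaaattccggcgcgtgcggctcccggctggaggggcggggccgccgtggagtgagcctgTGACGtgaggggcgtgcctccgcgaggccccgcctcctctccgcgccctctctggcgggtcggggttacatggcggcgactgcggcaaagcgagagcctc

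The Dusp5 region held 2 CArG boxes side by side, CCATATTTGG and CCTTATATGG, which began 82 and 72 bases before the gene start; 1.64% of the 33469 regions of this length in the same table held a CArG box, and none of the other 6 members did. The complete element TGACGTCA was found for Dusp1 alone, 124 bases before its start, and in 1.83% of all regions. The half-site TGACG, which lies inside that element, was found for Dusp1, Dusp2, Dusp5 and Mapk6 and in 21.2% of all regions. The ETS core CCGGAA was found for Dusp5 and Mapk6 (14.95% of all regions), the E-box CACGTG for Dusp1 and Dusp2 (6.42%), and the GC box GGGCGG for 5 of the 7, all but Dusp6 and Dusp8 (33.1%). The AP-1 sequence TGANTCA (7.33% of all regions), TATAAA (14.2%) and the kappaB site (7.51%) had no match in these 7 windows. These are matches of letters and not binding sites. The 7 regions were 56.3% to 73.0% G and C, all above the median of 51.7% over all regions, with Mapk6 the highest.

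Dusp6 encodes the cytoplasmic phosphatase specific for ERK, a standard readout of ERK activity. It was at 10.72, 10.12 and 11.79 in knockout 28, 27 and 52 and at 10.90, 10.93 and 11.05 in wildtype 34, 45 and 37. The wildtype arrays lay within 0.15 of each other, and the knockout held both the lowest and the highest array. The means were 10.88 ± 0.85 and 10.96 ± 0.079 (SD, n = 3 each), a difference of -0.083 (SE 0.43). The females differed by -0.50 and the male pair by 0.74, and the difference turned to 0.30 without knockout 27. Dusp5 and Dusp6, both specific for ERK, had unlike array profiles, with a root mean square difference of 0.85 between profiles centred on their own means; that of Dusp2 and Dusp6 was also 0.85, and those of all other pairs of members were smaller.

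Dusp1 encodes an inducible nuclear phosphatase that acts on p38, JNK and ERK and is a classical immediate early gene. It was at 19.76, 19.78 and 19.84 in knockout 28, 27 and 52 and at 19.76, 19.70 and 19.81 in wildtype 34, 45 and 37. These values lay at most 0.12 below the highest value of their array, and on 4 arrays Dusp1 was at the maximum itself, so the difference of 0.037 (SE 0.30) cannot show a change in the gene. Dusp2 and Dusp4 also encode inducible nuclear phosphatases. Dusp2 was at 8.19, 7.95 and 7.04 in knockout 28, 27 and 52 and at 7.10, 7.50 and 7.99 in wildtype 34, 45 and 37. Its lowest value was that of the knockout male, and the wildtype male lay between the knockout females. The females differed by 0.77, the males by -0.95 and all arrays together by 0.20 (SE 0.41). Without knockout 28 it was -0.035, and without wildtype 34 it was -0.018.

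Dusp4 was at 4.91, 5.47 and 5.60 in knockout 28, 27 and 52 and at 4.35, 4.91 and 6.0 in wildtype 34, 45 and 37. Of these values 3 do not exceed the highest background probeset of their array, and the 2 male arrays were the highest. The difference was 0.24 (SE 0.45), or 0.56 for the females and -0.40 for the male pair, and it was -0.13 without wildtype 34 and -0.30 with the keratinocyte median as a covariate. Dusp10 encodes a phosphatase that prefers JNK and p38. It was at 6.42, 6.43 and 6.65 in knockout 28, 27 and 52 and at 6.50, 6.68 and 6.51 in wildtype 34, 45 and 37. Its spread of 0.26 over all arrays was small, with a standard deviation at the 0.66th percentile of all genes, and its difference was -0.063 (SE 0.30).

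**Figure D2:**
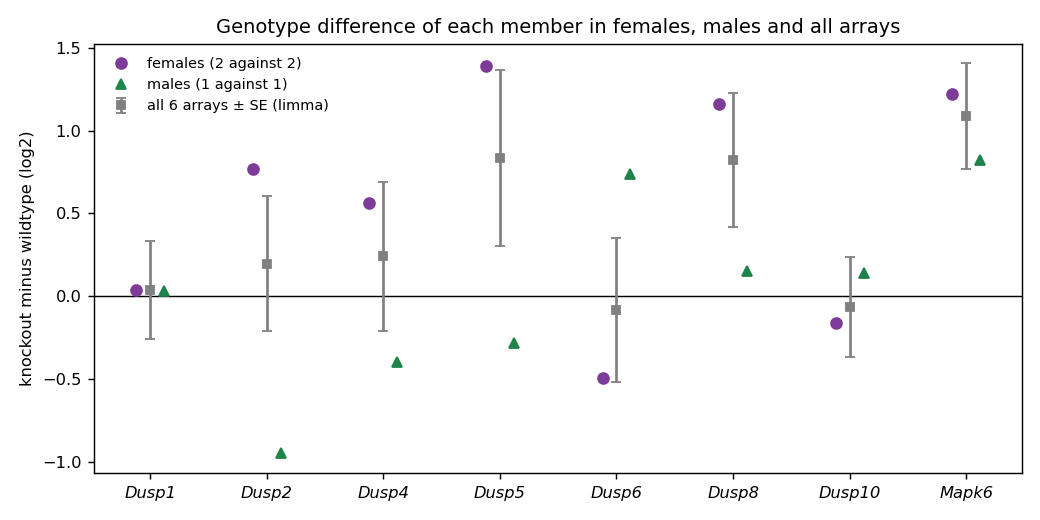
Genotype difference (knockout minus wildtype, log2) of each member in the females (circles, 2 against 2), in the male pair (triangles, 1 against 1) and over all 6 arrays (squares, bars ± the limma standard error). Mapk6 is above 0 at every point (1.22, 0.82 and 1.09), while Dusp2, Dusp4 and Dusp5 are above 0 in the females and below it in the males.

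The comparison of the sexes was not used to choose the members and was tested for them. In a limma model of genotype and sex, 0 of the 8 passed an adjusted p of 0.05, against 3 of all genes (0.0261%), and an unadjusted p under 0.05 was reached by 2148 genes (18.7%) and by 2 members, Dusp5 and Dusp4. Dusp5 was 1.15 higher in the males (SE 0.42, means 10.06 and 8.92, limma adjusted p = 0.205), Dusp4 was 0.89 higher (SE 0.37, adjusted p = 0.249) and Dusp6 was 0.75 higher (SE 0.38, adjusted p = 0.321). Among the arrays left out in turn, the males moved these values the most. Without wildtype 37 the difference was 0.31 for Dusp5, 0.41 for Dusp4 and 1.37 for Dusp6. Without knockout 52 it was 1.98, 1.37 and 0.135 in that order. Both males lay above all 4 females for Dusp4, Dusp5 and Dusp6, as they did for 23.5% of all genes. Dusp1 lay that way too, but the maximum of the array was itself higher on both males than on all 4 females, so nothing is read from it. The median difference of all genes was 0.18 toward the males. Dusp8 differed by 0.47 and Mapk6 by 0.33, neither past the test, and the value of Mapk6 became -0.019 on quantile normalization again. All 5 keratinocyte and all 6 lymphatic markers tested were lower in the males, 5 of each at an unadjusted p under 0.05 (limma). Among the 7 pericyte and smooth muscle markers 4 reached that level, all higher. Lymphatic Ccl21 differed by -4.485 (SE 0.51, limma adjusted p = 0.0322) and was 1 of the 3 genes called. What part cell make-up has in the sex differences of the members was not tested. The males were also 2 of the 3 arrays with low signal of the 8 probesets for added control transcripts. Their means were 8.82 and 8.91, with 9.33 in knockout 27, against 10.12 to 10.42 on the others. Sex and this signal can be told apart only through knockout 27. With high and low signal as a block, the sex difference was 1.07 for Dusp5, 0.32 for Dusp4 and 1.40 for Dusp6. For Dusp4 and Dusp6 the block moved the value more than leaving out a male did.

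Whether the genotype difference itself changed with sex was tested by the interaction term. It was -1.72 for Dusp2 (SE 0.71, limma adjusted p = 0.999, unadjusted p = 0.0417) and -1.67 for Dusp5 (SE 0.72, limma adjusted p = 0.999, unadjusted p = 0.0476). No gene of the 11515 passed by limma, with 119 (1.03%) at an unadjusted p under 0.05, and the male arm was 1 array against 1. Split by the added control transcripts instead of by sex, the difference of Dusp5 was 1.61 among the arrays of high signal and -0.55 among those of low signal, and that of Mapk6 was 1.25 and 0.74. The high side was knockout 28 against wildtype 34 and 45, and the low side knockout 27 and 52 against wildtype 37. Each value rests on 1 array of 1 genotype, and the low side holds both arrays of the male pair. With that split as a block the difference was 0.53 for Dusp5, 0.68 for Dusp8 and 0.995 for Mapk6, and Dusp4 turned to -0.093.

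Among the rest of the family, 14 dual-specificity phosphatase genes that are no members were tested and 0 passed between genotypes. They were higher on average in the knockout for 8 and lower for 6, with a median of 0.29 against 0.037 over all genes. Dusp16, a nuclear and cytoplasmic phosphatase of JNK and p38 and the closest in kind to Dusp8 and Dusp10, was at 7.23, 7.32 and 6.76 in knockout 28, 27 and 52 and at 6.60, 6.39 and 6.71 in wildtype 34, 45 and 37. Its knockout arrays all lay above the wildtype ones, by 0.05 at the nearest pair, and its difference was 0.54 (SE 0.32, limma adjusted p = 0.999). Dusp7, a cytoplasmic phosphatase of ERK like Dusp6, differed by -0.46 (SE 0.48). The knockout arrays lay above the wildtype ones for 3 of the 14, Dusp16, Dusp22 and Styxl1 (3.36% of all genes), and below them for 0 (2.89% of all genes). Styxl1 was below the highest background probeset on every array, and Dusp22 on 2.

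**Figure D3:**
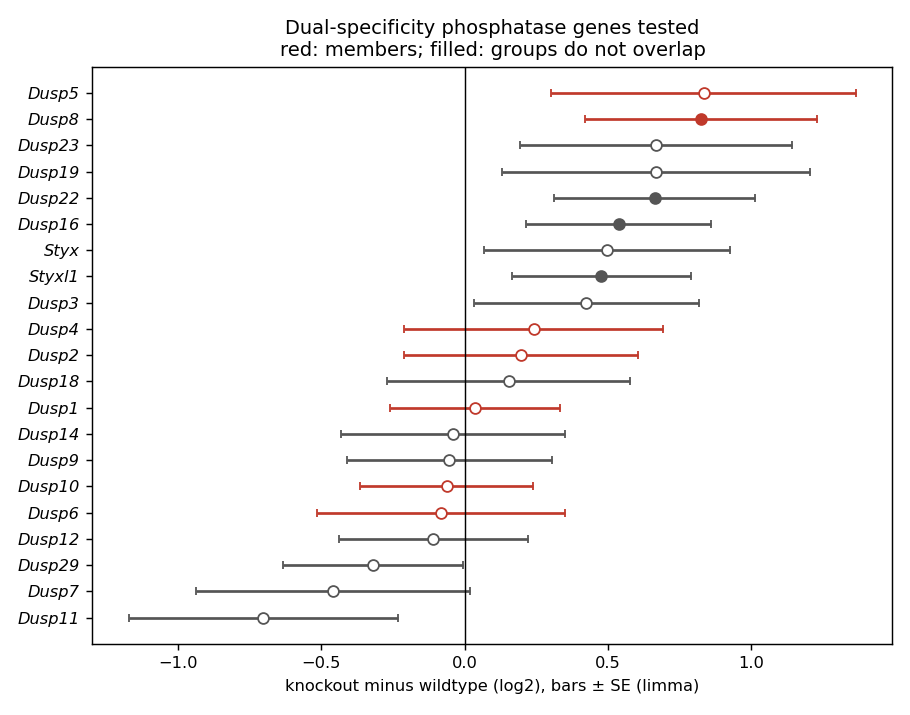
Genotype difference (knockout minus wildtype, log2, bars ± the limma standard error) of the 21 dual-specificity phosphatase genes tested; members are red and a filled point marks groups that do not overlap. The values run from -0.70 for Dusp11 to 0.83 for Dusp5, and Dusp8 is the only member with a filled point.

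The pathway around these phosphatases was described through 116 other genes tested of 128 that the annotation names. None of the 116 passed between genotypes by limma (smallest adjusted p = 0.999), and 2 had an unadjusted p under 0.05, where 227 of all genes did (1.97%). On average 74 were higher in the knockout and 42 lower, or 63.8% higher against 54.1% of all genes, and their median difference was 0.18. The groups did not overlap for 7 higher and 1 lower, 6.90% of the 116 against 6.25% of all genes. The lists were drawn up with earlier results of these data known, so their counts are descriptions.

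The 2 genes were both in the list of Sprouty and Spred proteins, inhibitors of Ras and ERK signalling, and Ras GTPase activating proteins, in which 10 of 11 were higher on average with a median of 0.43. Spry4, a Sprouty protein induced by ERK, was at 10.97, 10.31 and 10.38 in knockout 28, 27 and 52 and at 9.47, 8.82 and 10.01 in wildtype 34, 45 and 37. It did not overlap between genotypes, and its difference of 1.12 (SE 0.39) had an unadjusted p of 0.0183 and an adjusted p of 0.999 by limma. Errfi1, a feedback inhibitor of EGF receptors, was at 13.85, 14.81 and 14.40 against 12.84, 12.79 and 13.97 in the same order and differed by 1.15 (SE 0.43, limma unadjusted p = 0.0231, adjusted p = 0.999). In both genes the wildtype females were lowest and wildtype 37 lay close to the knockout arrays, and the male pair differed by 0.37 and 0.43.

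Among the MAP kinases 5 of 8 were higher on average, with a median of 0.13. The JNK genes Mapk8 and Mapk9 had the smallest p values there, with differences of 0.74 (SE 0.37) and 0.71 (SE 0.45), and neither passed. Among the MAP kinase kinases 2 of 7 were higher, led by Map2k3, an activator of p38, at 0.51 and Map2k4, an activator of JNK and p38, at -0.42. The upstream kinases were higher for 11 of 17 with a median of 0.22; Taok1 differed by 0.54 and Map3k6 by 0.58. Ras proteins and adaptors were higher for 7 of 12, with the exchange factors Sos2 at 0.55 and Sos1 at -0.47.

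Partners of ERK3 were higher for 5 of 8 with a median of 0.062. Mapkapk5, the kinase that ERK3 activates, was at 6.76, 6.74 and 6.58 in knockout 28, 27 and 52. In wildtype 34, 45 and 37 it was at 6.74, 7.18 and 6.71. Its difference of -0.18 was smaller than the standard error of 0.31, so no direction is read from it. The genes of smallest p in that list were Pak3, which was below the highest background probeset on every array, and Cdc14b at 0.56, and neither passed. Other phosphatases of MAP kinases were higher for 7 of 9, among them Ppm1a at 0.53 and Ppm1d at 0.59. Scaffolds were higher for 5 of 8, with Mapk8ip3 at 0.52 and Sh3rf1 at 0.32. Kinases downstream of MAP kinases were higher for 4 of 7, with Rps6ka4 at -0.38 and Mknk2 at 0.26.

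Genes read as ERK output were higher for 9 of 13, with a median of 0.34 over all arrays, 0.47 among females and -0.32 for the male pair. Epha4 at 0.59 and Myc at 0.69 had the smallest p values, and neither passed. Immediate early and heat shock genes, which tissue dissociation also induces, were higher for 18 of 19 with a median of 0.36 (0.73 in the females and -0.050 in the males), and 3 of them, Hspa8, Egr1 and Zfp36, were within 0.5 of the array maximum throughout, as Dusp1 was. The median of that list was 14.01 and 13.95 in wildtype 34 and 45, the arrays lowest in Dusp5 and Mapk6, 15.97 in wildtype 37, and 15.27, 14.74 and 15.04 in knockout 28, 27 and 52. The part of dissociation in the differences of the phosphatase genes was not tested.

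**Figure D4:**
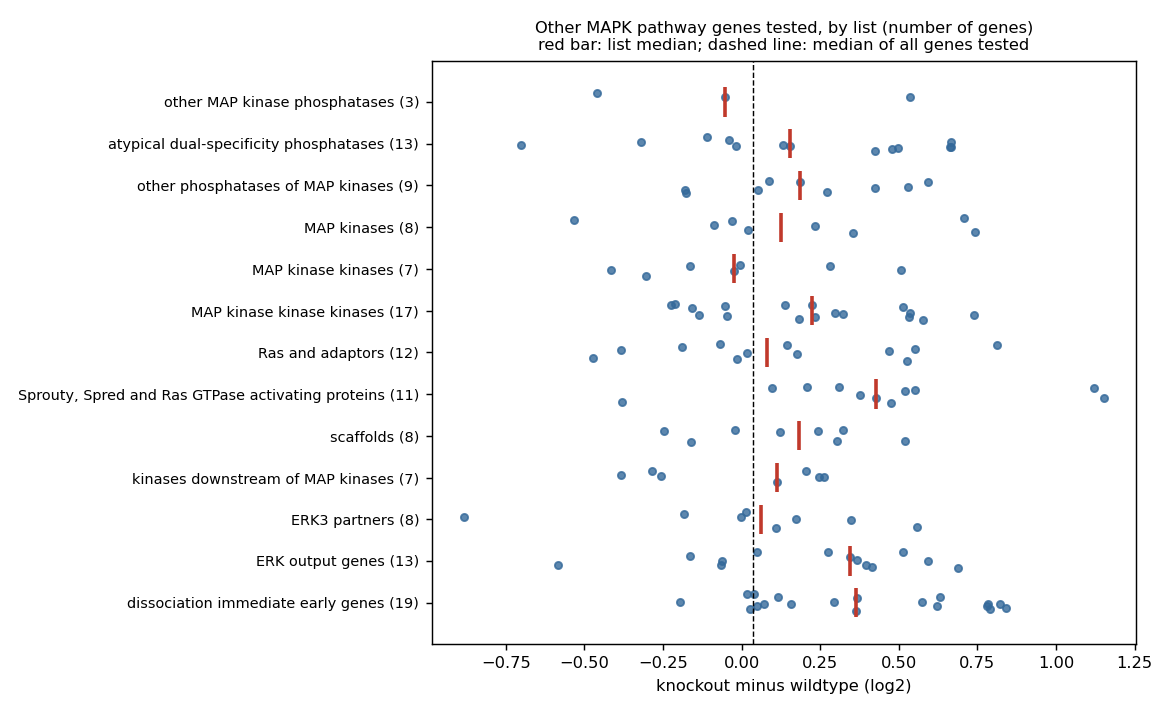
Genotype difference (knockout minus wildtype, log2) of each tested gene of the pathway lists and of the dissociation list, 1 point per gene, with a red bar at the list median and a dashed line at the median of all genes (0.037). The Sprouty and Spred list has its median at 0.43 and its 2 highest points, Errfi1 and Spry4, at 1.15 and 1.12.

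Genes with the array profile nearest to a member were found by the root mean square difference between centred profiles over the 6 arrays, a description that takes in sex and the purity of the sort as well as genotype. Nearest to Mapk6 were Akap13, an anchoring protein of protein kinase A (0.12), Rad18, a ubiquitin ligase of DNA damage tolerance (0.14), Urb1 (0.18), Pigc (0.18) and Cacul1 (0.19). Nearest to Dusp8 were S1pr3, a receptor of sphingosine 1-phosphate (0.041), B3gnt2 (0.093) and Ctla2a (0.15). Nearest to Dusp5 were Egflam (0.14), Rasal1, a Ras GTPase activating protein (0.14), and Retsat (0.16). For Dusp4 they were Armc8 (0.065), Rab8a (0.074) and Gsr (0.075), for Dusp2 Folh1 (0.14), Vom1r72 (0.15) and Casq2 (0.17), and for Dusp6 Lingo4 (0.092), Per3 (0.13) and Rad9b (0.13). Rad18 and Pigc, near Mapk6, and Folh1, Vom1r72 and Casq2, near Dusp2, were below the highest background probeset on every array, so these likenesses are to signal near background. Urb1 and S1pr3 exceeded it on 3 arrays, and Lingo4, Per3 and Rad9b on 1. Among the members themselves Mapk6 and Dusp8 were nearer to each other (0.35) than to any other member.

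**Figure D5:**
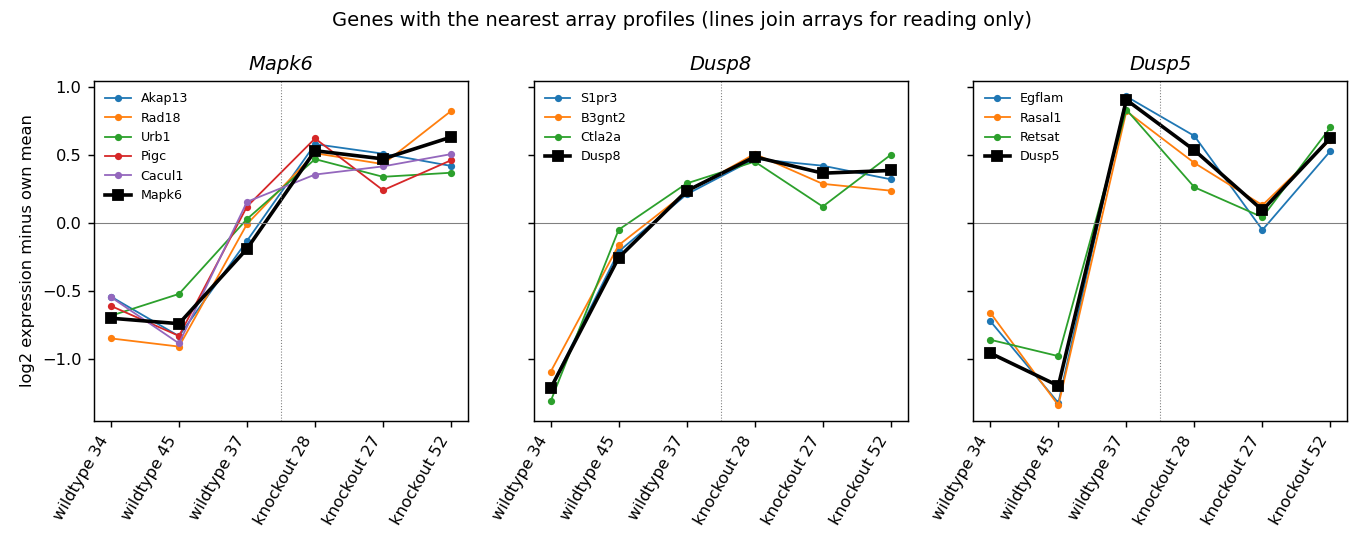
Log2 expression minus the gene's own mean over 6 arrays for Mapk6, Dusp8 and Dusp5 (black squares) and the genes nearest to each (coloured circles); lines join arrays for reading only and the dotted line parts wildtype from knockout. Dusp5 is highest in wildtype 37, where Mapk6 is below its own mean.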

How the data were processed

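Expression was measured on Affymetrix arrays. The deposited log2 values come from RMA in Affymetrix Expression Console as the authors ran it, per the submitters' processing notes (versions, probeset library and build: not given in the sources used here). The log2 reading rests on that entry and on the range, and an array ceiling near 19.70 to 19.93 hides differences of the brightest genes. Symbols came from the platform annotation, updated through Entrez identifiers in RefSeq (GRCr8); for a gene with several probesets the brightest on average was used. Dim genes, whose mean fell below the 25th percentile over probesets (3.52), were dropped, which left 11515 of 15037. Genotype, sex and their interaction were fitted to all 6 arrays with lmFit and eBayes of limma 3.58.1 under R 4.3.3, two-sided, with Benjamini-Hochberg adjustment over all genes tested. The fit was tested on simulated data with independent normal noise, and its recovery of differences as small as those of the members is not reported here. An exact permutation test of 3 against 3 was not used.

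The members and gene lists were chosen with earlier results of these data known. Named from each pathway list were genes that passed and the 2 of smallest genotype p; Spry4, Errfi1 and the dual-specificity genes without overlap fall under that rule. Mapkapk5 and Dusp11 were named after their values were seen. Nearest profiles were given for members whose standard deviation reached the median of all genes (0.47). Alternatives were other filters, scalings, covariates, weights and variance models, females only, the mean of a gene's probesets, and each array left out.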

Additional observations from a re-analysis of the deposited data

How the results depend on the processing

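Mapk6, Dusp5, Dusp8 and Dusp10 kept the sign of their genotype difference under all 14 alternatives run for each; Dusp2 did so under 12, Dusp4 under 11 and Dusp6 under 13. Of the 14, sex as a covariate and the mean of a gene's probesets could not move a member, and the sign of Dusp1, at the array ceiling, is not read. Leaving out each array in turn gave 0.99 to 1.26 for Mapk6, 0.42 to 1.15 for Dusp8, 0.44 to 1.49 for Dusp5, -0.035 to 0.54 for Dusp2, -0.13 to 0.70 for Dusp4, -0.54 to 0.30 for Dusp6, -0.14 to -0.0050 for Dusp10 and 0.0083 to 0.063 for Dusp1. In the females alone Dusp2 differed by 0.77. The genotype test called 0 genes without a filter, with the filter at the 50th percentile and in the females alone, and 0 to 1 on leaving out an array. Genes without overlap numbered 475 at the 50th percentile filter and 1455 to 2782 on leaving out an array, where fewer samples make overlap rarer. No gene of the pathway lists was called under any of the 17 alternatives, and the interaction called 0 genes under the 5 run. Between the sexes 29 genes were called with arrays centred on their medians, 26 with trend and robust options, 717 with array weights, 27 without genotype in the model, and 2 to 66 on leaving out an array (66 without knockout 27); the cause was not tested. No member was called between the sexes in 96 results (smallest adjusted p 0.101, limma). The sex difference changed sign in 7 of them: on quantile normalization again for Dusp1 (-0.037), Dusp10 (-0.21) and Mapk6 (-0.019), without knockout 28 for Dusp2 (0.0043), without knockout 52 for Dusp2 (0.69) and Dusp10 (-0.080), and without wildtype 37 for Dusp8 (-0.040). Leaving out each array gave sex differences of -1.03 to 0.69 for Dusp2, -0.040 to 0.97 for Dusp8, -0.080 to 0.23 for Dusp10, 0.31 to 1.98 for Dusp5, 0.41 to 1.37 for Dusp4, 0.135 to 1.37 for Dusp6 and 0.13 to 0.53 for Mapk6. The median sex difference of all genes was 0.18 as deposited, 0.061 on quantile normalization again and 0.29 with arrays centred. The sample labels name no pairs of animals, and no paired analysis was run.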
